A study of Mus musculus with 14 samples.

Results

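A set of 40 genes that drive DNA replication and mitosis was followed across 8 groups of sorted mouse mammary cells on 14 2-colour expression arrays. They were taken by name, as the probes whose gene name in the scanner files was a listed replication or mitosis gene or an older synonym of one, such as Cdc2a for Cdk1. All 40 were found among the 23651 genes measured, on 62 of the 41174 probes, and 17 of them had several probes. The rule itself used no measured value. The wild-type cells came from FVB/N-J mice and were sorted into P4 (labelled CD24+CD29hi and enriched for mammary stem cells, MaSC), P5 (enriched for luminal progenitors, and labelled CD24+CD29hi as well) and P6 (labelled CD24lo, differentiated mammary epithelial cells). Each of these populations was sorted from pregnant and from virgin mice, with 2 arrays per population and condition. Lineage-negative GFPhi cells, enriched for stem cells, and GFPlo cells, depleted of them, came from virgin FVB/N-Luciferase L2G85 transgenic mice, with 1 array each. The labels give neither the age of the mice nor the day of pregnancy, and do not say which promoter drives the transgene or whether replicates were separate animals. If they were not, the p-values measure only the spread between these arrays, which may be technical. The design sets the stem-cell-enriched populations (P4 and GFPhi) against the depleted ones (P5, P6 and GFPlo) in pregnant and in virgin mice.

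Cells commit to division in G1 when D-type cyclins with their kinases, then cyclin E, release E2F transcription factors from the retinoblastoma protein. Helicases of the MCM family are loaded on replication origins by Cdc6 and Cdt1, nucleotide-making enzymes and the sliding clamp Pcna serve DNA synthesis, and cyclins A and B with Cdk1 carry the cell through G2 into mitosis. Many of the mitotic genes are known to be repressed in resting cells and switched on late in the cycle through a promoter element called CHR beside CCAAT boxes, and many replication genes through E2F sites. The mammary epithelium is known to proliferate in pregnancy while alveoli form, and cyclin D1 is known to be needed for that growth in mice.

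The promoters of the mitotic genes with the largest differences, and of Mcm6 as a replication gene with E2F words, are shown as examples of CHR words and of E2F words. Sequences are RefSeq promoters of build GRCm38.p6, from 250 bases before to 50 bases after the gene's start, written 5′ to 3′ along the gene. Capitals mark matches to the words searched, on either strand. The CHR was searched as TTTGAA and, in the form without guanine, as TTTAAA. The CCAAT box was searched by its name's letters, and E2F sites as TTTCCCGC, TTTCGCGC, TTTGCCGC or TTTGGCGC. Mki67 lies on the minus strand at chr7:135716330-135716629, Ube2c on the plus strand at chr2:164769679-164769978, Prc1 on the plus strand at chr7:80294201-80294500, Ccnb1 on the minus strand at chr13:100786437-100786736 and Mcm6 on the minus strand at chr1:128359656-128359955. In Ube2c a CCAAT word overlaps one of the other strand (CCAATTGG), and in Mcm6 an E2F word overlaps one of the other strand.
Mki67: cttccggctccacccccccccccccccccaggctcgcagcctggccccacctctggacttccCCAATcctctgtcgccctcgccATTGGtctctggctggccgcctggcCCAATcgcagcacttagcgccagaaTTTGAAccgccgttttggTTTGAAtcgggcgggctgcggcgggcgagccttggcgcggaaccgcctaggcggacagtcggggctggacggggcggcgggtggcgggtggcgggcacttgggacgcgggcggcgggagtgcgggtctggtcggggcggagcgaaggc
Ube2c: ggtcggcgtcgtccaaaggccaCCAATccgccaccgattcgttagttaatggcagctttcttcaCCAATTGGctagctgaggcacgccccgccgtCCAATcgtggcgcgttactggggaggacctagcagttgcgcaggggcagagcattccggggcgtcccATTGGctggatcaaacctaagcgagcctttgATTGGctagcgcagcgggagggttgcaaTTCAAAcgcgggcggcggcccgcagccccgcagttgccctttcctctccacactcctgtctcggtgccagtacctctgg
Prc1: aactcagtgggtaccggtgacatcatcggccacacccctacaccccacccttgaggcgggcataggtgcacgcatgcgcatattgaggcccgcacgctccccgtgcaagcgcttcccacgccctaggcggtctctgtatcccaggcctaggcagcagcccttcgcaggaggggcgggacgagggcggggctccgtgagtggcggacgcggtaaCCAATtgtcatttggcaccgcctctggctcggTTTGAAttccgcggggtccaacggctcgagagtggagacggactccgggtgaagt
Ccnb1: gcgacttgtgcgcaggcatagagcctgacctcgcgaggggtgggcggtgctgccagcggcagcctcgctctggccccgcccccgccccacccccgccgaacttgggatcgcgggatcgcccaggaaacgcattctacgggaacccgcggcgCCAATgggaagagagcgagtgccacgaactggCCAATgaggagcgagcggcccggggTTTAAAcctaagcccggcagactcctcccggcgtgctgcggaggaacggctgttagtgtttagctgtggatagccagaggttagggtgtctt
Mcm6: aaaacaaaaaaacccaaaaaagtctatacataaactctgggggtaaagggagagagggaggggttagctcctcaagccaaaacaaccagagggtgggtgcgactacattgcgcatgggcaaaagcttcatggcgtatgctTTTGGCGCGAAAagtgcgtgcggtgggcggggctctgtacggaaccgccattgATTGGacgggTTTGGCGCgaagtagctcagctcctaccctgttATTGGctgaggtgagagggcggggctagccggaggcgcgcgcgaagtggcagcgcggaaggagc

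RefSeq promoters matched 32 of the 40 genes. CHR words stood in 21 of these 32, against 27.6% of 32851 mouse promoters of the same length. CCAAT words stood in 24 of 32, against 37.4% of promoters. E2F words stood in 7 of 32, against 2.26% of promoters. A gene was counted if any of its promoters held a word, while the shares are per promoter. Mcm7 had 2 promoters, and the first of them held no E2F word. Among roles, all 5 drivers of G2 and mitosis with a promoter (Ccnb1, Ccnb2, Cdk1, Plk1 and Aurka) held both a CHR and a CCAAT word, while 6 of the 7 origin licensing genes with a promoter (Cdc6, Cdt1, Mcm3, Mcm5, Mcm6 and Mcm7) held an E2F word and 2 of them a CHR word. CCAAT words did not separate these roles as far, standing in 5 of those 7 licensing genes, and none of the 5 fork and nucleotide genes held an E2F word, while 2 held a CHR word. The roles were not tested against each other. Mki67, shown above, held 2 CHR words and 3 CCAAT words before the start. A match of letters is a description and not a binding site.

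Each value below is the log2 ratio of the sorted cells (Cy5) over a reference RNA mixed from 11 mouse cell lines (Cy3). Negative values mean less RNA in the sorted cells than in that mix, and fewer dividing cells and less RNA per dividing cell cannot be told apart in such bulk samples. The median Cy5 intensity per array ran from 70.9 to 196, with 66.5% to 86.7% of probes well above background. Of the 40 genes, 38 passed the scanner software's background test in Cy5 on all 14 arrays, and none was saturated. The kinetochore kinase gene Bub1 was not well above background on 1 array (pregnant P6 replicate 1), and the checkpoint kinase gene Ttk was not on 4 arrays (pregnant P6 replicate 2, virgin P6 replicate 1, GFPhi and GFPlo).

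Replicate arrays of 4 of the 6 groups differed in the cell cycle genes as a set, and this touches every comparison. In virgin P5, all 40 genes were higher in replicate 2 than in replicate 1, by a median of 1.07 on the log2 scale, against -0.02 over all genes. The same difference was 0.83 in pregnant P6, 0.46 in pregnant P4, 0.68 in virgin P4, 0.09 in pregnant P5 and -0.05 in virgin P6. It lay in the sorted cells' channel: in virgin P5 the median was 1.10 in Cy5 and 0.01 in Cy3. Replicate 1 of the virgin groups was scanned in scan 1, replicate 1 of the pregnant groups in scan 3, which was made without the scanner's extended range, and replicate 2 of all groups in scan 2. Scan and any difference between the cell preparations cannot be told apart.

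**Figure D1:**
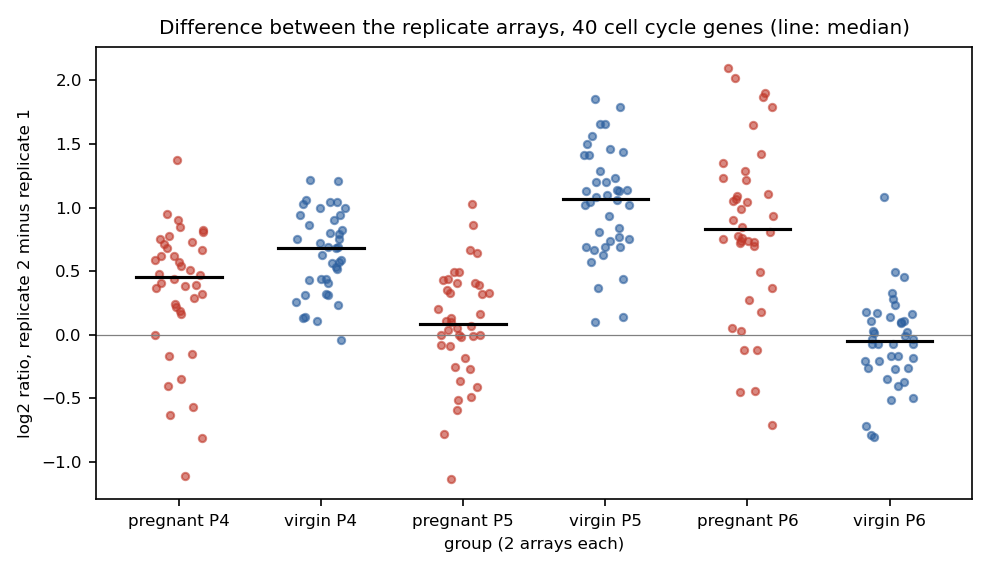
Difference between replicate 2 and replicate 1 for each of the 40 genes (points, log2 ratio scale) in the 6 groups with 2 arrays, with the median as a line. In virgin P5 all 40 points lie above 0, while pregnant P5 and virgin P6 scatter around 0.

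Nearly all of the 40 genes were below the reference mix on every array. Between 38 and 40 of them were below 0 on each array, while the median over all genes lay between 0 and 0.07. The median over the 40 genes was highest in pregnant P5, at -1.42 and -1.24 on its 2 arrays. It was -2.21 and -1.31 in virgin P5, -2.53 and -2.12 in pregnant P4, -2.17 and -1.45 in virgin P4, -2.90 and -2.0 in pregnant P6, and -2.60 and -2.63 in virgin P6. GFPhi stood at -1.87 and GFPlo at -2.18. The second array of virgin P5 lay among those of pregnant P5, while its first lay among those of P4.

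By group mean, pregnant P5 was the highest of the 6 replicated groups for 27 of the 40 genes, virgin P4 for 7 and virgin P5 for 6. The lowest group was virgin P6 for 23 genes and pregnant P6 for 12. The genes for which virgin P4 was highest included the origin licensing helicase gene Mcm4, whose mean there was -0.80, and the clamp gene Pcna, whose mean was -0.58. Chromosome and checkpoint genes reached furthest below the reference. On pregnant P6 replicate 1 the 8 genes of chromosomes and the spindle checkpoint had a median of -3.99, against -1.51 and -1.48 on the pregnant P5 arrays. The 4 genes of G1 and S entry stayed closer to it, between -1.55 and -0.38 on the 14 arrays.

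**Figure D2:**
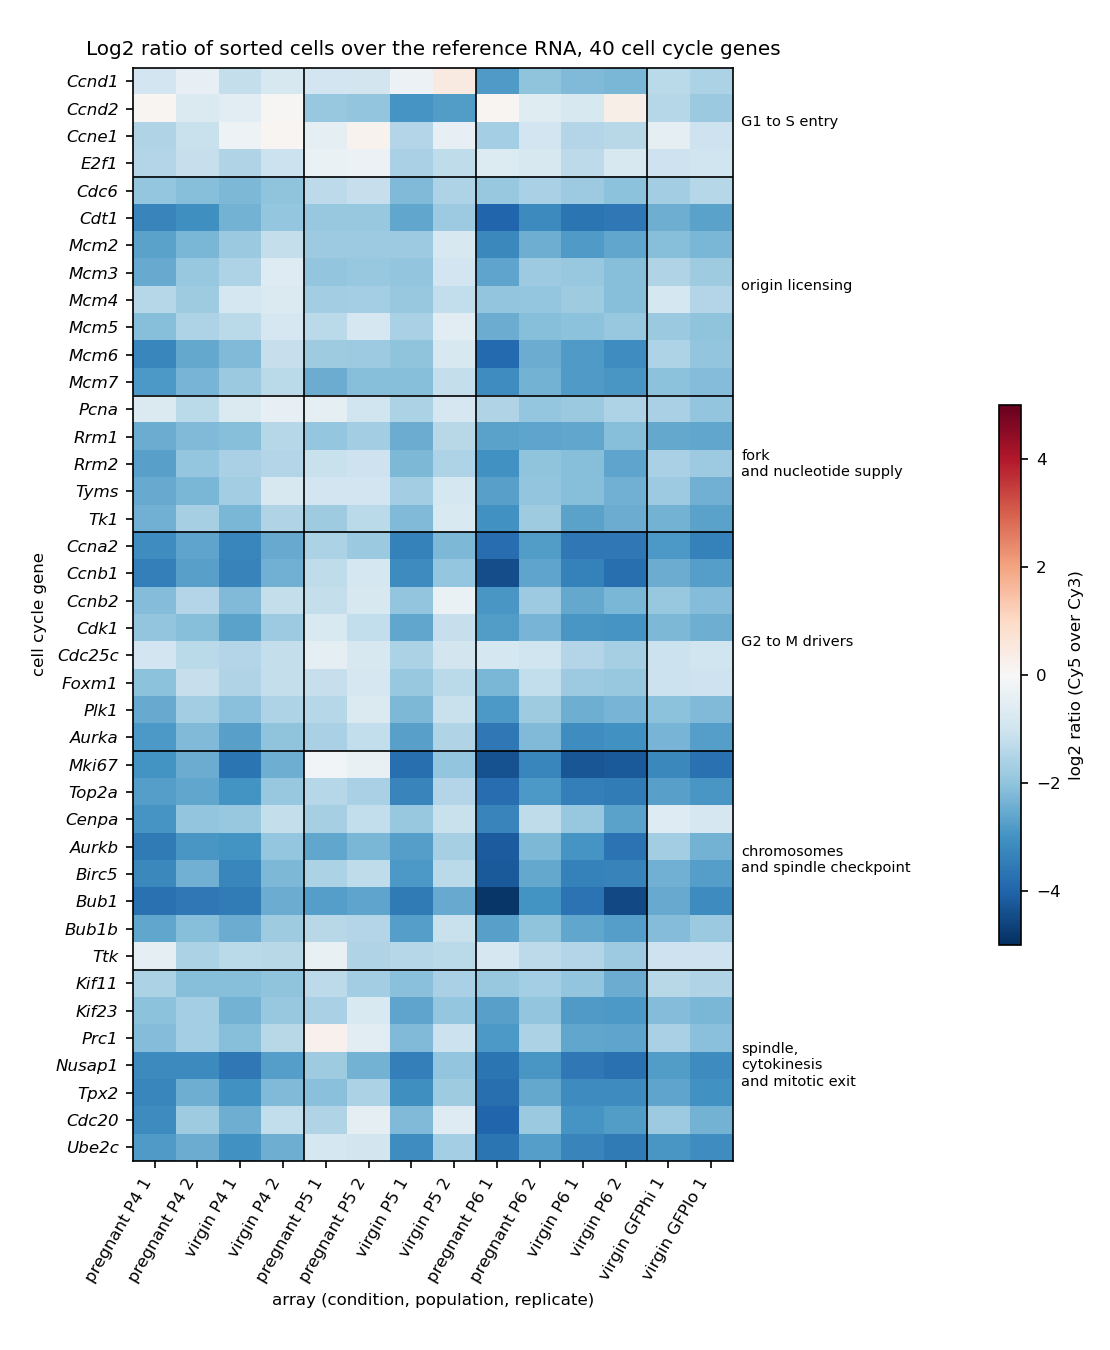
Log2 ratio over the reference RNA (colour) of each of the 40 genes (vertical axis, grouped by role) on each of the 14 arrays (horizontal axis). Blue marks values below the reference; the pregnant P5 columns are pale for Mki67 and Ube2c, and Ccnd2 is darkest in virgin P5.

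Mki67, which encodes the Ki-67 protein of dividing cells, spanned the widest range of the genes given in every array. It was at -0.12 and -0.37 in pregnant P5 and at -3.77 and -1.98 in virgin P5. It was at -3.0 and -2.49 in pregnant P4, against -3.65 and -2.43 in virgin P4, and at -4.36 and -3.27 in pregnant P6, against -4.29 and -4.19 in virgin P6. GFPhi had -3.24 and GFPlo -3.75. Both pregnant P5 arrays were above all 12 others.

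Top2a, the topoisomerase that untangles chromosomes before mitosis, was at -1.43 and -1.61 in pregnant P5, against -3.30 and -1.45 in virgin P5. It was at -2.77 and -2.61 in pregnant P4, against -2.97 and -1.91 in virgin P4, and at -3.82 and -2.89 in pregnant P6, against -3.43 and -3.50 in virgin P6. GFPhi had -2.71 and GFPlo -2.92. The pregnant and virgin arrays overlapped in each of P4, P5 and P6.

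Cdk1, the kinase that starts mitosis, was at -0.76 and -1.25 in pregnant P5, against -2.58 and -1.17 in virgin P5. It was at -1.99 and -2.14 in pregnant P4, against -2.69 and -1.83 in virgin P4, and at -2.81 and -2.32 in pregnant P6, against -2.92 and -2.95 in virgin P6. GFPhi had -2.26 and GFPlo -2.45. Its partner cyclin B1, Ccnb1, was at -1.28 and -0.87 in pregnant P5, against -3.16 and -1.93 in virgin P5. There both pregnant arrays were above both virgin ones, as in 33.9% of all genes. Ccnb1 was at -3.42 and -2.71 in pregnant P4, against -3.35 and -2.41 in virgin P4, and at -4.43 and -2.64 in pregnant P6, against -3.36 and -3.76 in virgin P6. GFPhi had -2.47 and GFPlo -2.77 for Ccnb1.

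Pcna was at -0.50 and -1.01 in pregnant P5, against -1.60 and -0.85 in virgin P5, and these arrays overlapped. It was at -0.72 and -1.35 in pregnant P4, against -0.73 and -0.42 in virgin P4, and at -1.49 and -1.93 in pregnant P6, against -1.86 and -1.53 in virgin P6. GFPhi had -1.63 and GFPlo -1.98. Mcm2, a subunit of the replicative helicase, was at -1.82 on both pregnant P5 arrays, against -1.82 and -0.80 in virgin P5. It was at -2.68 and -2.29 in pregnant P4, against -1.84 and -1.21 in virgin P4. There both pregnant arrays were below both virgin ones, as in 26.3% of all genes. Mcm2 was at -3.22 and -2.46 in pregnant P6, against -2.84 and -2.61 in virgin P6, and at -2.11 in GFPhi and -2.30 in GFPlo.

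The D-type cyclins, which sense growth signals in G1, divided the populations in opposite ways. Ccnd1 was at -0.97 and -0.90 in pregnant P5, against -0.28 and 0.46 in virgin P5. It was at -0.97 and -0.40 in pregnant P4, against -1.21 and -0.80 in virgin P4, and at -2.85 and -2.0 in pregnant P6, against -2.20 and -2.27 in virgin P6. GFPhi had -1.36 and GFPlo -1.60. All 4 P6 arrays were below all 10 others for Ccnd1. Ccnd2 was at -1.89 and -1.98 in pregnant P5, against -2.93 and -2.79 in virgin P5. It was at 0.08 and -0.73 in pregnant P4, against -0.53 and 0.04 in virgin P4, and at 0.09 and -0.62 in pregnant P6, against -0.80 and 0.28 in virgin P6. GFPhi had -1.44 and GFPlo -1.84 for Ccnd2, and all 4 P5 arrays were below the 8 arrays of P4 and P6.

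**Figure D3:**
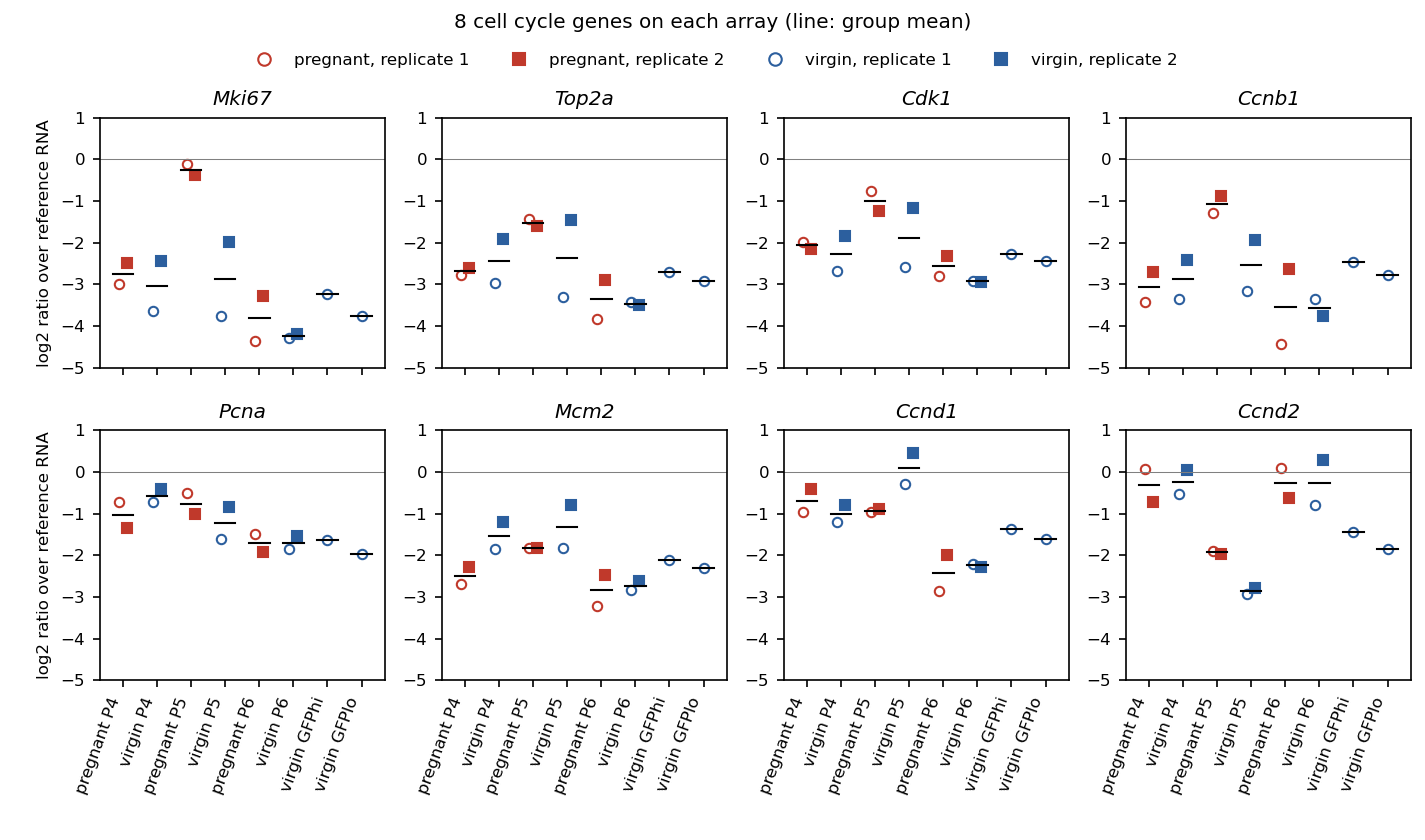
Log2 ratio over the reference RNA of 8 cell cycle genes on every array, by group, with replicate 1 as open circles, replicate 2 as filled squares and the group mean as a line. Both pregnant P5 arrays lie above the rest for Mki67, and the P5 arrays lie below those of P4 and P6 for Ccnd2.

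Other genes with called differences were also read array by array. Ube2c was at -0.89 and -0.91 in pregnant P5, against -3.12 and -1.68 in virgin P5, at -2.84 and -2.47 in pregnant P4, against -3.04 and -2.45 in virgin P4, and at -3.65 and -2.75 in pregnant P6, against -3.32 and -3.53 in virgin P6. Prc1 was at 0.21 and -0.57 in pregnant P5, against -2.20 and -1.06 in virgin P5, at -2.15 and -1.68 in pregnant P4, against -2.14 and -1.39 in virgin P4, and at -2.89 and -1.60 in pregnant P6, against -2.61 and -2.62 in virgin P6. Both genes were higher on the 2 pregnant P5 arrays than on any other of the 14, and one Prc1 value there was above the reference mix. Cdt1 was at -1.91 on both pregnant P5 arrays, against -2.61 and -1.80 in virgin P5, at -3.29 and -3.05 in pregnant P4, against -2.37 and -1.93 in virgin P4, and at -3.98 and -3.20 in pregnant P6, against -3.67 and -3.58 in virgin P6. Tyms was at -0.94 on both pregnant P5 arrays, against -1.73 and -0.89 in virgin P5, at -2.52 and -2.30 in pregnant P4, against -1.74 and -0.80 in virgin P4, and at -2.70 and -1.96 in pregnant P6, against -2.14 and -2.41 in virgin P6. Both Cdt1 and Tyms were lower on both pregnant P4 arrays than on both virgin P4 arrays, as were 26.3% of all genes.

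Mcm4 was at -1.73 and -1.68 in pregnant P5, against -1.89 and -1.22 in virgin P5, at -1.43 and -1.78 in pregnant P4, against -0.86 and -0.73 in virgin P4, and at -1.98 and -1.93 in pregnant P6, against -1.76 and -2.13 in virgin P6. GFPhi stood at -0.86 and GFPlo at -1.48, so that virgin P4 and GFPhi held its highest values. Mcm6 was at -1.79 and -1.80 in pregnant P5, against -2.02 and -0.82 in virgin P5, and at -3.27 and -2.54 in pregnant P4, against -2.20 and -1.16 in virgin P4. Rrm2 was at -1.13 and -1.03 in pregnant P5, against -2.23 and -1.54 in virgin P5. Both pregnant arrays were thus the higher ones, as in 33.9% of all genes.

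The chromosomal passenger genes Birc5 and Aurkb, the survivin and kinase members of one complex, differed by 0.68 and -0.23 between pregnant and virgin P5, and neither passed the test. The mitotic kinase genes Plk1 (0.62) and Aurka (0.67), the spindle genes Nusap1 (0.63) and Tpx2 (0.59) and the mitotic transcription factor gene Foxm1 (0.63) lay close together in P5, again without a call. The histone variant gene Cenpa of the centromere differed by 0.05, the cyclin B2 gene Ccnb2 by 0.15 and the thymidine kinase gene Tk1 by -0.09. Cdc20, the activator of mitotic exit, was at -1.49 and -0.46 in pregnant P5, against -2.19 and -0.63 in virgin P5.

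In P5, pregnancy went with higher levels of 2 of the 40 genes and lower levels of none. Mki67 rose 6.18-fold (log2 difference 2.63, SE 0.619, limma adjusted p = 0.0183). E2f1, the E2F factor that switches on replication genes, rose 2.18-fold (1.13, SE 0.228, limma adjusted p = 0.00938). E2f1 was at -0.35 and -0.31 in pregnant P5, against -1.64 and -1.27 in virgin P5. A call here is an adjusted p under 0.05 in a limma fit over all genes and the 12 arrays of the replicated groups. Against that count, 21.4% of all genes were called in this comparison, and 10.7% were called higher, so the share of cell cycle genes called was below the background. The median of the 40 genes was 0.55, against 0.04 over all genes, and 31 of 40 were above 0.

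The shift in P5 was uneven over the roles. All 8 drivers of G2 and mitosis and all 7 genes of the spindle, cytokinesis and mitotic exit were above 0, with medians of 0.66 and 0.63. Origin licensing genes had a median of -0.26, with 2 of 8 above 0. In all, 12 genes were higher on both pregnant arrays than on both virgin arrays, against 33.9% of all genes. Second probes gave Mki67 a difference of 2.81 (SE 0.502, limma adjusted p = 0.00585) and E2f1 one of 0.72 (SE 0.186, limma adjusted p = 0.0284). One of the other probes of Ccnd2 was called too (1.82, SE 0.313, limma adjusted p = 0.00492), where the brightest gave 0.93 without a call. The same held for Cdc25c, a phosphatase that activates Cdk1 (0.77, limma adjusted p = 0.047, where the brightest gave 0.64). For Cdk1 the second probe gave 0.06, where the brightest gave 0.88. Of the 17 other probes that could be tested, 14 had the sign of the brightest probe of their gene, and those of Kif23 (-0.13, against 1.08), Cdc6 (-0.12, against 0.65) and Mcm3 (0.41, against -0.48) had the opposite one. In the other comparisons of the replicated groups, agreement ran from 12 of 17 (pregnancy in P4) to 15 of 17 (such as pregnant P5 minus P6).

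The replicate number within each condition was fitted as a block, since same-numbered arrays of a condition deviated together over all genes. In the 40 genes virgin P6 did not, and some pairs of groups from different conditions deviated together as well. With the block, the count in P5 became 13 higher and 2 lower, against 21.4% and 19.5% of all genes. The 13 included Ube2c, which marks mitotic cyclins for destruction (1.5, SE 0.361, limma adjusted p = 0.0135 with the block), Kif23, a kinesin of cytokinesis (1.08, SE 0.191, limma adjusted p = 0.00358, on the brightest probe only), Ccnb1 (1.47, SE 0.43, limma adjusted p = 0.029) and Prc1, which bundles the central spindle (1.45, SE 0.453, limma adjusted p = 0.0374). The 2 lower ones were Ccnd1 (-1.02, SE 0.23, limma adjusted p = 0.0101) and Mcm7, a helicase subunit (-0.65, SE 0.218, limma adjusted p = 0.0476). Each block lay within a condition, so pregnant and virgin cells were compared between blocks. The block fit takes the shift between replicate numbers out of the error. Its adjusted p-values for pregnancy effects, in P4 and P6 too, therefore leave out that spread. Without the block and without virgin P5 replicate 1 no gene was called, and without virgin P5 replicate 2 there were 6. The call for Mki67 was also lost without either pregnant P5 array, without scan 3, with slide as a block and with median centring, and that for E2f1 without scan 3 and with median centring. Within scan 2, which holds 1 array of each replicated group, Mki67 differed by 1.60 and E2f1 by 0.97. There 18 of 40 genes were above 0, against 54.8% of all genes, and their median was -0.08.

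In P4, limma called none of the 40 genes between pregnant and virgin cells, while 3.72% of all genes were and 7 of the 40 had an unadjusted p under 0.05. The median of the 40 was -0.23, against -0.03 over all genes. Origin licensing genes stood lowest, with a median of -0.97. Under the replicate block 9 genes fell and none rose, against 10.2% of all genes called lower. These were the cyclin E gene Ccne1 (-1.23, SE 0.216, limma adjusted p = 0.00882), the thymidylate synthase gene Tyms (-1.14), the licensing factor gene Cdt1 (-1.02), the helicase genes Mcm2, Mcm3, Mcm4, Mcm5 and Mcm7 (from -0.75 to -1.12) and Rrm1, a subunit of ribonucleotide reductase (-0.58). Ccne1 was at -1.52 and -1.11 in pregnant P4, against -0.24 and 0.08 in virgin P4, and the groups did not overlap. It was among 13 genes that were lower on both pregnant arrays, against 26.3% of all genes. Those higher on both pregnant arrays were 0 of 40, against 21.3% of all genes. Within scan 2, 3 of 40 genes were above 0 and the median was -0.33, against 48.9% of all genes above 0.

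In P6, limma called none of the 40 genes, against 0.203% of all genes, and 1 had an unadjusted p under 0.05. Their median was 0.09. Limma called none under the replicate block either, against 4.43% of all genes, and 4 had an unadjusted p under 0.05. Within scan 2, 36 of 40 were above 0 with a median of 0.62, where pregnant P6 replicate 2 stood against virgin P6 replicate 2. Of all genes 57.3% were above 0 there, with a median of 0.05.

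**Figure D4:**
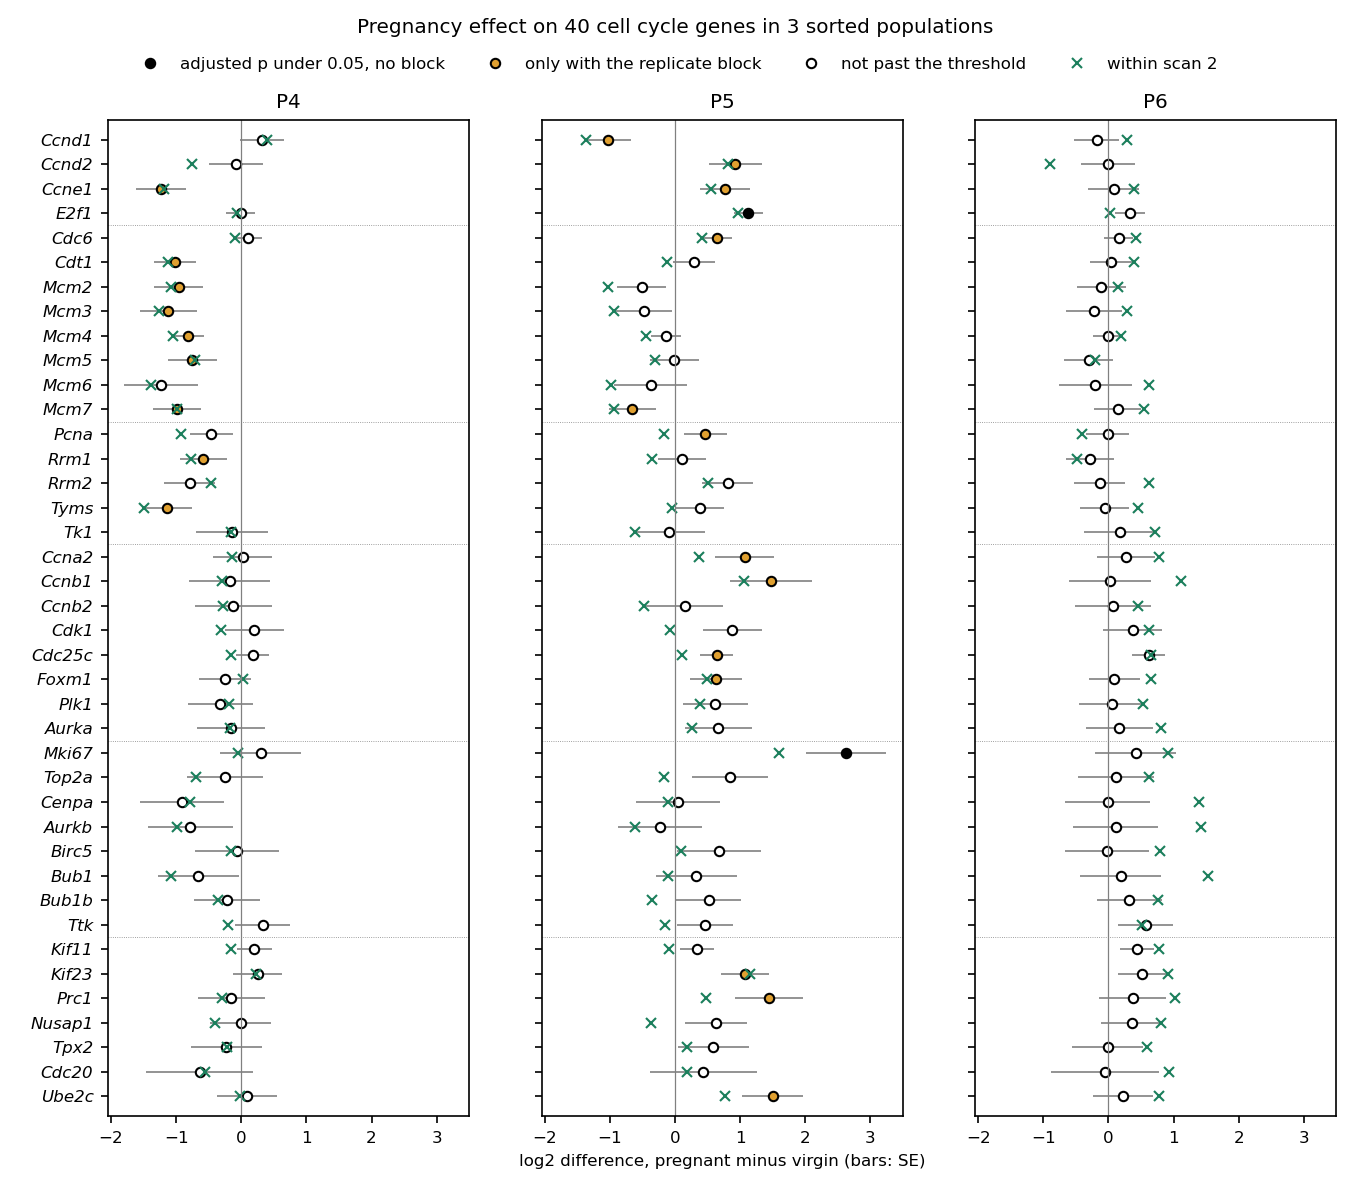
Log2 difference between pregnant and virgin cells (horizontal axis, bars are SE) for each of the 40 genes (vertical axis) in P4, P5 and P6. Black points passed an adjusted p of 0.05, amber points passed it only with the replicate block, and green crosses are the single arrays of scan 2. Mki67 and E2f1 are the black points, both in P5, and 6 of the 9 amber points in P4 are origin licensing genes.

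Epithelial markers moved with pregnancy too. The 9 luminal genes had a median of 1.12 and 1.68 in pregnant P5, against 4.01 and 3.92 in virgin P5. Of these 9 genes, 7 were called lower, against 21.4% of all genes called in either direction in P5. The 7 basal genes had a median of 2.57 and 2.33 in pregnant P5, against 1.45 and 0.97 in virgin P5, and none was called by limma, with 2 at an unadjusted p under 0.05. The 4 milk protein genes had a median of 5.48 and 8.22 in pregnant P5, against 4.99 and 4.53 in virgin P5. In pregnant P4 the milk protein genes stood at 4.49 and 6.88, against 3.22 and 2.27 in virgin P4, and the 4 adipocyte genes at 4.23 and 2.71, against 0.49 and 0.46 in virgin P4. Limma called 1 of these 4 adipocyte genes, against 3.72% of all genes, and they disagreed. Lep was at 3.92 and 4.78 in pregnant P4, against 0.31 and 0.28 in virgin P4. Adipoq (4.54 and 0.65, against 0.61 and 0.52) and Plin1 (3.47 and 0.43, against 0.37 and 0.40) were near virgin levels on replicate 2. Fabp4 was at 5.71 and 9.28, against 7.88 and 7.25. The part of these shifts in the cell cycle differences of P5 and P4 was not tested.

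Whether the difference between pregnant and virgin cells itself differed between populations was tested as an interaction. On the brightest probes, limma called none of the 40 genes for P5 against P4, for P6 against P4 or for P6 against P5, where 8.08%, 0.3% and 7.36% of all genes were. At an unadjusted p under 0.05 there were 7, 3 and 2. Another probe of Ccnd2 was called for P5 minus P4 (2.12, SE 0.443, limma adjusted p = 0.0272) and for P6 minus P5 (-2.13, SE 0.443, limma adjusted p = 0.0273). The median difference of effects was 0.83 for P5 minus P4, with 39 of 40 genes above 0, but it turned to -0.19 with median centring and was 0.24 without virgin P5 replicate 1. All 3 contrasts share arrays with each other. Under the replicate block 7 genes had a higher and 1 a lower effect in P5 than in P4, against 14.1% and 12.4% of all genes. The same block gave 0 for P6 against P4 (2.84% of all genes, limma, 6 at an unadjusted p under 0.05) and 2 genes with a lower effect in P6 than in P5 (11.6% of all genes).

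Between populations of pregnant mice, P5 stood above P6 in 12 cell cycle genes and below it in 1, against 13.8% and 13.2% of all genes called higher and lower. Mki67 was 11.8-fold higher in P5 (3.57, SE 0.619, limma adjusted p = 0.00308). Ccnb1 was 5.53-fold higher (2.47, SE 0.629, limma adjusted p = 0.0199) and Ube2c 4.93-fold higher (2.30, SE 0.464, limma adjusted p = 0.00659). Prc1 differed by 2.07, Top2a by 1.83, Cdt1 by 1.67, the cyclin A2 gene Ccna2 by 1.57, Cdk1 by 1.56 and Ccnd1 by 1.49. The call for Top2a was lost in 14 of 24 other settings and that for Cdk1 in 10, while that for Mki67 was lost in 1. Ccnd2 was 3.18-fold lower in P5 (-1.67, SE 0.413, limma adjusted p = 0.0175). The other genes called higher were Mcm5, Tyms and Rrm2, the small subunit of ribonucleotide reductase.

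Members of every role were among those higher in pregnant P5 than in P6: 3 of 8 drivers of G2 and mitosis, 2 of 8 licensing genes, 2 of 5 fork and nucleotide genes, 2 of 8 chromosome genes, 2 of 7 spindle genes and 1 of 4 G1 genes. The median of the 40 was 1.21, against 0.05 over all genes. On the arrays, 32 of 40 were higher on both P5 arrays than on both P6 arrays, against 32% of all genes. The replicate block gave 27 higher and 1 lower, against 24% and 20.3% of all genes. Within scan 3, 39 of 40 were above 0 with a median of 1.59, and within scan 2, 35 of 40 with a median of 0.91. Of all genes 55.7% were above 0 in scan 3 and 52.8% in scan 2. Leaving out pregnant P6 replicate 1 left 3 calls and leaving out pregnant P6 replicate 2 gave 21.

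**Figure D5:**
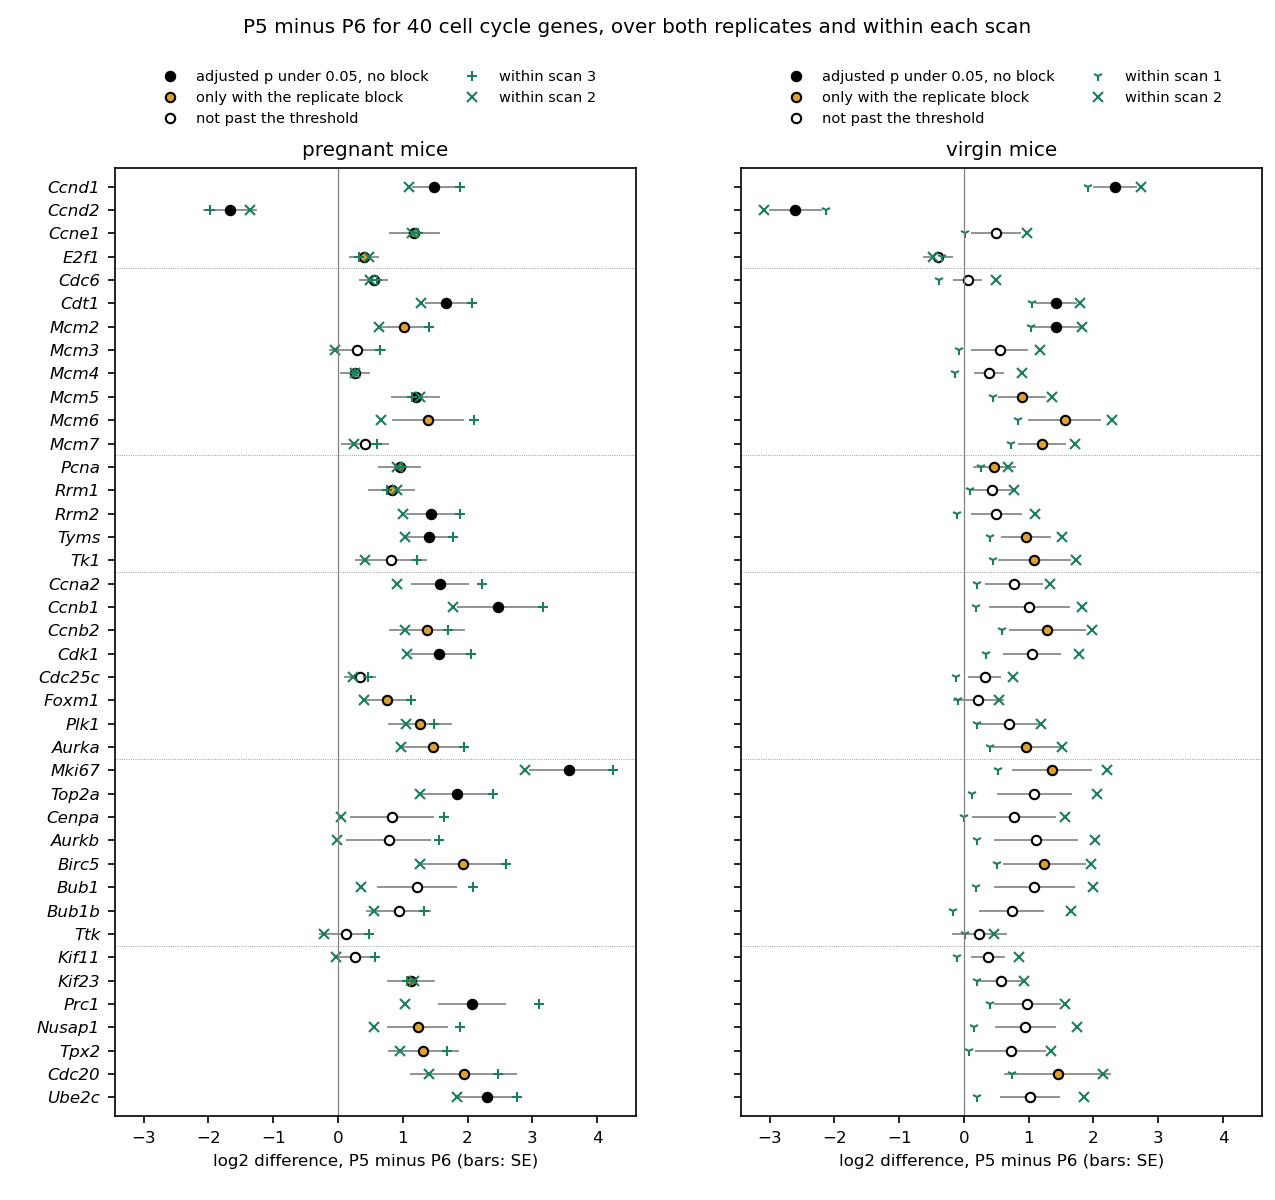
Log2 difference between P5 and P6 (horizontal axis, bars are SE) for each of the 40 genes in pregnant mice (left) and virgin mice (right). Black points passed an adjusted p of 0.05, amber points only with the replicate block, and green marks are single arrays of 1 scan. Nearly all genes lie right of 0 in pregnant mice in both scans, with Mki67 furthest, and Ccnd2 lies left of 0 in both conditions.

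Fibroblast markers moved with the contrasts that hold P6. The 6 fibroblast genes had a median between 3.64 and 6.21 on the 4 P6 arrays, against -2.84 to -1.31 on the 8 arrays of P4 and P5. All 6 were called lower in pregnant P5 than in pregnant P6, against 13.2% of all genes. Col1a1 was at -2.28 and -2.94 in pregnant P5, against 3.49 and 5.97 in pregnant P6. These genes were thus high in cells labelled as differentiated epithelium, and their part in the lower cell cycle levels of P6 was not tested. The median of the 11 leukocyte genes lay between -1.13 and 0.22 on these 12 arrays, and Ptprc, which marks all leukocytes, lay between -4.73 and -2.84.

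Pregnant P4 stood below pregnant P5 in 7 genes and above it in 1, against 10.9% and 11.7% of all genes. The lower ones were Mki67 (-2.50, SE 0.619, limma adjusted p = 0.0209), Ube2c (-1.75), Prc1 (-1.74), Tyms (-1.47), Cdt1 (-1.26), E2f1 (-0.97, SE 0.228, limma adjusted p = 0.0165) and the licensing factor gene Cdc6 (-0.81). Ccnd2 was 3.05-fold higher in P4 (1.61, SE 0.413, limma adjusted p = 0.0243). In 31 of 40 genes both P4 arrays were below both P5 arrays, against 32.4% of all genes, and the median was -0.97. The fit with the replicate block gave 22 lower and 1 higher, against 22% and 19.3% of all genes. Leaving out pregnant P4 replicate 1, or either pregnant P5 array, left no call. The call for Prc1 was lost in 13 of 24 other settings. Markers moved with this contrast as well: 3 of 5 endothelial genes were called higher in P4 (median difference 2.29), 3 of 7 basal genes higher (2.38), and of 9 luminal genes 3 lower and 1 higher (-0.74). The endothelial genes had a median of 3.30 and 5.45 in pregnant P4, against 2.06 and 2.28 in pregnant P5, and their part in the difference was not tested.

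Pregnant P4 and P6 were closer. Ccnd1 was 3.33-fold higher in P4 (1.74, SE 0.341, limma adjusted p = 0.0112), the only gene called, against 6.21% of all genes called higher. With the replicate block 3 genes were called, against 24.4% of all genes: Ccnd1 and Pcna (0.68) were higher in P4 and E2f1 (-0.57) lower. The call for Ccnd1 was lost without pregnant P4 replicate 2 and without pregnant P6 replicate 1.

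In virgin mice, P5 stood above P6 in Ccnd1 (5.02-fold, 2.33, SE 0.341, limma adjusted p = 0.00175), Cdt1 (1.42, SE 0.32, limma adjusted p = 0.0164) and Mcm2 (1.42, SE 0.378, limma adjusted p = 0.0348), and below it in Ccnd2 (6.08-fold, -2.60, SE 0.413, limma adjusted p = 0.00268). These were 3 higher and 1 lower, against 7.34% and 8.82% of all genes. Under the replicate block there were 14 and 1, against 15.3% and 13.7%. The median of the 40 was 0.93, and 27 genes were higher on both P5 arrays, against 26.7% of all genes. The arrays of scan 2 gave a median of 1.54 with 38 of 40 above 0, and those of scan 1 gave 0.20 with 30 of 40 above 0. Of all genes 51.6% were above 0 in scan 2 and 49% in scan 1. The count became 12 without virgin P5 replicate 1 and 2 without virgin P5 replicate 2.

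Virgin P4 stood above virgin P6 in Cdt1 (1.47, SE 0.32, limma adjusted p = 0.021) and Mcm4 (1.15, SE 0.233, limma adjusted p = 0.0152), 2 of 40, against 4.9% of all genes called higher. The block raised this to 10 higher, against 11.6%, and 5 of these were of the 8 licensing genes. On the arrays 34 of 40 were higher in both P4 arrays, against 28.8% of all genes. Neither call was made without virgin P4 replicate 1, without virgin P4 replicate 2 or without virgin P6 replicate 2. Virgin P4 differed from virgin P5 in 1 gene, Ccnd2, which was 6.14-fold higher in P4 (2.62, SE 0.413, limma adjusted p = 0.00428), against 6.57% of all genes called higher. The replicate block gave 5 genes there, against 24.4% of all genes, and the median of the 40 was -0.10.

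Over all 14 arrays, the stem-cell-enriched populations of pregnant mice did not differ from the depleted ones in any of the 40 genes by the limma test, against 2.51% of all genes, and 1 gene had an unadjusted p under 0.05. The median was -0.37. This fit put P5 and P6 in the same depleted group, so differences between them entered its residual spread. Over the 40 genes the median was -0.97 for pregnant P4 minus P5 and 0.30 for pregnant P4 minus P6. In virgin mice Mcm4 was higher in the enriched populations (0.88, SE 0.184, limma adjusted p = 0.0324), the only gene called, against 1.53% of all genes called higher. The call was lost in 14 of 27 other settings. With the replicate block its limma adjusted p was 0.0631 and no gene was called, against 1.68% of all genes in either direction. By limma, none was called for the difference between the pregnant and the virgin contrast, against 0.0973% of all genes, with 3 at an unadjusted p under 0.05. Its median was -0.62, with 1 of 40 genes above 0.

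GFPhi cells were above GFPlo cells in 34 of the 40 genes, against 50.7% of all genes, by a median of 0.26. With 1 array each there was no test. The differences ran from -0.32 for the checkpoint gene Bub1b to 0.63 for Bub1, and 0 of 40 passed 2-fold in either direction, against 6.34% of all genes. Trp63, a marker of basal cells, was at 7.22 in GFPhi and 2.73 in GFPlo, while Col1a1, a fibroblast gene, was at 0.57 in GFPhi and 4.21 in GFPlo, and the part of these cell types in the difference was not tested.

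Other genes of the cycle were counted from wider lists. Of 40 other replication genes, 5 rose and 2 fell with pregnancy in P5, against 10.7% of all genes called higher and 21.4% called in either direction, and 1 fell in P4, against 3.72% in either direction. The shares for P5 were thus near or below those of all genes. Fen1, the flap nuclease of lagging-strand synthesis, rose 4.38-fold in P5 (2.13, SE 0.284, limma adjusted p = 0.00133), and Gins4, a subunit of the replicative helicase complex, rose 2.01-fold (1.01, limma adjusted p = 0.00168). Slbp, which binds histone mRNA, fell by 1.32 on the log2 scale (limma adjusted p = 0.000832) and Prim2, a primase subunit, by 1.06 (limma adjusted p = 0.0384). Of 45 other mitosis genes, 3 rose in P5 and none fell, against the same 10.7% called higher: Spc25, a kinetochore subunit (2.20, limma adjusted p = 0.017), the kinase gene Nek2 (1.52) and the phosphatase gene Cdc25b (1.14). Of 17 E2F, pocket and MuvB genes, 2 fell in P5 and none rose, against the same 21.4%: the retinoblastoma gene Rb1 (-2.26, SE 0.499, limma adjusted p = 0.014) and E2f3 (-0.85). Of 11 CDK inhibitors and G1 kinases, limma called none between pregnant and virgin cells, with 1 at an unadjusted p under 0.05 in P4, 2 in P5 and 2 in P6. The shares of all genes called were 3.72% in P4, 21.4% in P5 and 0.203% in P6. For pregnant P5 against P6, 13 of the other replication genes and 10 of the other mitosis genes were higher and 1 replication gene was lower, against 13.8% and 13.2% of all genes.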

How the data were processed

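Gene expression was measured on 14 2-colour Agilent arrays of sorted mouse mammary cells. Per the file headers, the deposited intensity values are mean spot and local background brightness per channel from Agilent Feature Extraction, and the deposited log10 ratio is the scanner software's own ratio of Cy5 over Cy3. Per the submitters' processing notes its version was 9.5.3.1. The authors' deposited series table holds log2 ratios that followed the scanner ratio (correlation 0.9996 to 1 per array), with column medians from -0.0182 to 0.102 and a centring that is not given in the sources used here.

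Intensities were background-corrected with limma 3.58.1 in R 4.3.3 (normexp, offset 50), with local backgrounds marked as outliers replaced by the median of their array and channel, a choice made after seeing the data. Loess was fitted within arrays, outlier spots (77 to 193 per array) were left out, and spots of a probe were averaged. Of 41174 probes, 34815 were kept because the scanner software's background test was passed in Cy5 by each array of some replicated group, and the brightest probe stood for each of 23651 genes. Symbols came from RefSeq by accession (22951 probes), symbol (6659) or synonym (3109), and otherwise from the file (8455). The 6 replicated groups shared a limma fit with 6 residual degrees of freedom, a second fit of 4 design cells covered the enriched and depleted populations on 14 arrays, and adjusted p-values are Benjamini-Hochberg over all genes. Replicate numbers, given by the labels, paired arrays within a condition: over all genes their deviations correlated at 0.305 to 0.688 over 6 pairs, against -0.208 to 0.146 over 9 pairs of groups from different conditions. Over the 40 members the separation did not hold throughout. It was absent for virgin P6, at 0.0113 with virgin P4 and 0.00872 with virgin P5. Pregnant P4 reached 0.531 with virgin P4 and 0.536 with virgin P5. Pregnant P6 reached 0.66 with virgin P4 and 0.562 with virgin P5. These values were above the 0.495 of pregnant P5 with pregnant P6, while other pairs from different conditions lay as low as -0.449. A fit with the replicate number within each condition as a block left 4 residual degrees of freedom. For pregnant minus virgin differences its p-values leave out the spread between blocks.

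The members and lists were chosen with earlier results of these data known. In each comparison up to 10 genes past the threshold were named by size of difference, 8 genes are given on every array, and up to 5 genes of each wider list were named. The code was tested on simulated data. Alternatives were other log ratios, centring, filters, probe summaries, blocks by slide, scan or replicate, and leaving out arrays. The number of arrays limits the precision.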

Additional observations from a re-analysis of the deposited data

Results flagged for a closer look

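With the replicate block, the difference between pregnant and virgin cells was itself different in P5 and P4 for 8 of the 40 genes by limma's interaction test, and in P6 and P5 for 2. None of these passed without the block, where the adjusted p is given beside each. With the block, 14.1% of all genes had a higher and 12.4% a lower effect in P5 than in P4. A lower effect in P6 than in P5 was called for 11.6% of all genes. Between P5 and P4 the effect was higher in P5 for Mki67 (2.33, SE 0.586, limma adjusted p = 0.025, and 0.155 without the block), the cyclin E gene Ccne1 (2.00, SE 0.306, limma adjusted p = 0.00397, and 0.0632 without the block) and E2f1 (1.14, SE 0.182, limma adjusted p = 0.00466, and 0.0693 without the block). It was also higher for Rrm2 (1.60, limma adjusted p = 0.0294), Tyms (1.52, limma adjusted p = 0.0366), Cdt1 (1.31, limma adjusted p = 0.0211) and Pcna (0.92, limma adjusted p = 0.0133). For these 4 genes the adjusted p without the block lay between 0.124 and 0.285. It was lower in P5 for Ccnd1 (-1.34, SE 0.325, limma adjusted p = 0.0218, and 0.138 without the block). Between P6 and P5 the effect was lower in P6 for Mki67 (-2.20, limma adjusted p = 0.034, and 0.197 without the block) and E2f1 (-0.80, limma adjusted p = 0.0194, and 0.201 without the block).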

How the results depend on the processing

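Counts of the 40 genes called moved with several settings. No gene called in a comparison changed sign there in the settings run, which was not examined for genes without a call. With the replicate block they were 9 for pregnancy in P4, 15 in P5, 8 for P5 against P4, 2 for P6 against P5, 23 for pregnant P4 against P5, 3 for P4 against P6, 28 for P5 against P6, 5, 10 and 15 for the same pairs in virgin mice, and 0 for enriched against depleted virgin cells. Scan as a block gave 5 for pregnancy in P4 and 9 in P5, with the other counts as under the replicate block. Slide as a block gave 1, 1, 2, 1, 5, 3, 27, 4, 9, 11 and 0 in the order of the replicate block's counts. Cy5 alone gave 2 for pregnancy in P4, 6 in P5, 2 for P5 against P4, 14 for pregnant P4 against P5, 2 for P4 against P6, 22 for P5 against P6, 2 and 6 for virgin P4 against P5 and P6, 1 for the pregnant enriched contrast and 0 for the virgin one. Median centring gave 1 for pregnancy in P5, 3 for pregnant P5 against P6, and 0 for pregnant P4 against P5, virgin P4 against P5 and P6 and the virgin enriched contrast. Without scan 3 there was 1 for pregnancy in P5 and 0 for the 3 pregnant pairs and the virgin enriched contrast, where single arrays per pregnant group were left. Backgrounds as given left 1 for P6 against P5, 4 for pregnant P4 against P5, 7 for P5 against P6 and 1 for virgin P4 against P6. The scanner ratio and the series table gave 0 for the virgin enriched contrast, the mean of probes 1 for P5 against P4, and means of 8 groups 1 for the pregnant enriched contrast. The share of all genes called moved with the setting too. For genes higher in pregnant P5 than in P6 it went from 13.8% to 24% with the replicate block. For genes higher with pregnancy in P5 it went from 10.7% to 21.4%. The counts of this section therefore show dependence on the setting and are not a result about the 40 genes.

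Leaving out each array in turn gave 0 to 6 calls for pregnancy in P5, 0 to 1 for P5 against P4, 0 to 10 for pregnant P4 against P5, 0 to 1 for P4 against P6, 3 to 21 for P5 against P6, 1 to 2, 0 to 4 and 2 to 12 for these pairs in virgin mice, and 0 to 1 for the virgin enriched contrast, a lone array being assumed to vary like the other groups. The other counts were 0 to 0. The median over the 40 genes kept its sign in every setting for pregnant P4 against P5 (-1.14 to -0.30) and P5 against P6 (0.77 to 1.74), but ran from -0.05 to 0.99 for pregnancy in P5, from -0.61 to 0.34 in P4 and from -0.19 to 1.35 for P5 against P4. Median centring moved the median of all genes by up to 0.26. With 2 arrays per group, small differences cannot be shown.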
